A study of Mus musculus with 66 samples.

Results

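Total RNA of mouse fibroblasts was compared between 16 h and 4 h of Myc activation, to see which RNA levels changed late. The 6 libraries were all the total RNA libraries at these times, 3 per time, of 66 libraries in the series. All came from 3T9-MycER cells, fibroblasts of E13.5 embryos with c-myc flox/flox alleles that had been infected in culture with a pBabe-bleo MycER construct. In MycER a hormone-binding domain of the oestrogen receptor is joined to Myc, a transcription factor, so that the protein stays inactive until 4-hydroxytamoxifen (OHT) is added. Both groups carried MycER and both had received 400 nM OHT, for 4 h or for 16 h. The series holds 11 times from 0 min to 16 h, and at each of them both total RNA depleted of ribosomal RNA and newly made RNA, captured after a 10 min pulse of 300 µM 4-thiouridine (4sU). No 16 h library without OHT was analysed here, so time in culture and time with OHT cannot be told apart. Whether replicates were grown as separate cultures is not said in the labels, and the p-values speak only of the spread among these libraries, which could be technical.

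Myc binds DNA with its partner Max, often at E-boxes, and is best known for raising genes of ribosome production, nucleotide synthesis and cell division. Fibroblasts make and remodel the extracellular matrix, a network of collagens, glycoproteins and proteoglycans. They hold on to it through integrins, receptors that span the membrane and connect through focal adhesion proteins to actin fibres. Tension on these fibres drives the transcription factor SRF with its MRTF partners and the factors YAP and TAZ with TEAD, and TGF-beta is a main signal for matrix production. Myc is also known to repress collagen and integrin genes in several cell types.

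Exon values and intron values were deposited in separate tables of 11513 genes. Exon values stand mostly for mature RNA and intron values mostly for RNA not yet spliced. The deposited whole numbers were rescaled by the authors, so true read depth is unknown and no counting interval is given. Their sums in the 6 libraries were 47.6 to 50.7 M for exons and 11.1 to 12.4 M for introns. Introns held 18.2 to 20.6% of a library at 4 h and 17.9 to 19.7% at 16 h, and the 10 highest genes 5.33 to 5.59% and 4.94 to 5.10% of its exon values. A value below is the deposited value after a further scaling between libraries, and a change is the difference of mean log2(value + 1), 16 h minus 4 h, tested with limma. The values are relative to all genes of a library, so a change in RNA per cell was not measured. Because the use of strand in counting is not given, reads of overlapping genes could not be separated; this touches Ctgf (Gm15270), Tagln (Pcsk7), Csf1r (Hmgxb3), Col4a1 (Col4a2), Col18a1 (Slc19a1), Egfl7 (Agpat2), Ccnd1 (Oraov1), Loxl3 (Htra2), Igfbp7 (Polr2b), Ctnna1 (Lrrtm2), Farsb (Sgpp2), Pfkm (Senp1), Cdc45 (Ufd1l), Kif20a (Cdc23), Ncapg (Lcorl), Nhp2 (Rmnd5b), Rrp9 (Parp3) and Mlx (Psmc3ip), and others that overlap unnamed or antisense genes, such as Loxl2, Hmga2, Txnip and Srf.

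Of 11486 genes tested on exons, 1845 (16.1%) were higher at 16 h and 2224 (19.4%) lower at an adjusted p under 0.05, 35.4% in all. Falls reached further than rises: 196 genes fell by 1 or more on the log2 scale and 48 rose by as much. The median change of all genes was -0.0042. The balance of rises and falls depends on the scaling: with library sums in place of trimmed means 2576 genes were higher and 1848 lower, and with no further scaling 2454 were higher and 1737 lower. On introns 937 of 11474 genes (8.17%) were higher and 1189 (10.4%) lower, 18.5% in all, against 1464 higher and 850 lower with library sums. Without replicate 2 at 16 h 576 were higher on introns and 882 lower. In bulk RNA, fewer cells of a kind and less RNA per cell cannot be told apart.

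Among the 12 genes that fell furthest were genes of cell junctions, of the matrix and of transcription. Cldn1, a tight junction claudin (chromosome 16, bases 26356728 to 26371927, mm9), had exon values of 1714, 2118 and 2116 at 4 h and 436, 507 and 402 at 16 h. It fell 4.41-fold (log2 change -2.14, SE 0.12, adjusted p = 2.01e-13), with the libraries at 16 h well below those at 4 h. Tinagl1, a matrix glycoprotein of basement membranes (chromosome 4, bases 129841698 to 129852366), had 3561, 3643 and 2906 at 4 h and 727, 858 and 715 at 16 h. Its fall was of like size (log2 change -2.13, SE 0.14, adjusted p = 3.74e-12). Ctgf, a secreted matricellular protein and a standard target of YAP and of TGF-beta (chromosome 10, bases 24315248 to 24318489), had 21685, 18368 and 13887 at 4 h and 5814, 4108 and 4140.0 at 16 h. Its fall was 3.82-fold (log2 change -1.94, SE 0.22, adjusted p = 8.39e-08). Per length it stood at 119 ± 27.7 RPKM at 4 h and 32.1 ± 6.95 RPKM at 16 h (SD, n = 3). Hmga2, a chromatin protein of embryonic and tumour cells, had 16737, 9899.9 and 13759 at 4 h and 3534, 3441 and 4818 at 16 h and fell 3.39-fold (adjusted p = 3.4e-09). The others among the 12 furthest falls were the gap junction gene Gjb2 (-1.90), Apol8 (-1.86), the semaphorin gene Sema7a (-1.86), Klhdc8a (-1.83), the ETS factor gene Etv1 (-1.77), Gvin1 (-1.76), Rapgef3 (-1.73), which codes for an exchange factor activated by cyclic AMP, and Olfml2b (-1.63), all as log2 changes.

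Rises were led by genes with low values. Slc38a3, a glutamine transporter, had 41.1, 62.3 and 104 at 4 h and 287, 258 and 321 at 16 h (log2 change 2.14, SE 0.47, adjusted p = 0.00068). The prostaglandin receptor gene Ptgfr had 9.02, 17.6 and 16.5 at 4 h and 56.6, 80.3 and 53.6 at 16 h (log2 change 2.10, SE 0.32, adjusted p = 9.24e-06). Both genes were below 2 RPKM. That the times do not overlap for the 12 rises and 12 falls named was a condition of their choice. Most genes named from lists below had the smallest p of their list in this same comparison. A gap between their early and late libraries is thus favoured by the choice and is no separate support. The share of all genes without overlap is not given here. Otogl (1.76), Ptprq (1.61), Tspan33 (1.40), Ccdc151 (1.28), Hmgcll1 (1.25) and Egfl7 (1.23) were likewise low. Without replicate 2 at 4 h the rise of Tspan33 was 1.06 with an adjusted p of 0.0802. Better measured rises were those of Txnip and Arrdc4, members of the alpha-arrestin family that restrain glucose uptake. Txnip (chromosome 3, bases 96361880 to 96365806) had 707, 1088 and 864 at 4 h and 2407, 2628 and 2297 at 16 h, a 2.79-fold rise (adjusted p = 3.81e-09). Arrdc4 had 173, 229 and 138 at 4 h and 432, 449.6 and 421 at 16 h (log2 change 1.29, SE 0.16, adjusted p = 2.51e-07). At a low level again, Bmf, a pro-apoptotic relative of Bcl2 that senses the cytoskeleton, had 34.1, 70.6 and 47.5 at 4 h and 144, 192 and 119.9 at 16 h (log2 change 1.60, SE 0.27, adjusted p = 2.98e-05). Its labelled RNA rose as well (log2 change 2.28, adjusted p = 0.000568). Smpdl3b, a membrane phosphodiesterase, had 1651, 1760.2 and 1836 at 4 h and 4100.3, 4316 and 3940.2 at 16 h, the smallest adjusted p of the 12 rises (1.32e-12).

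**Figure D1:**
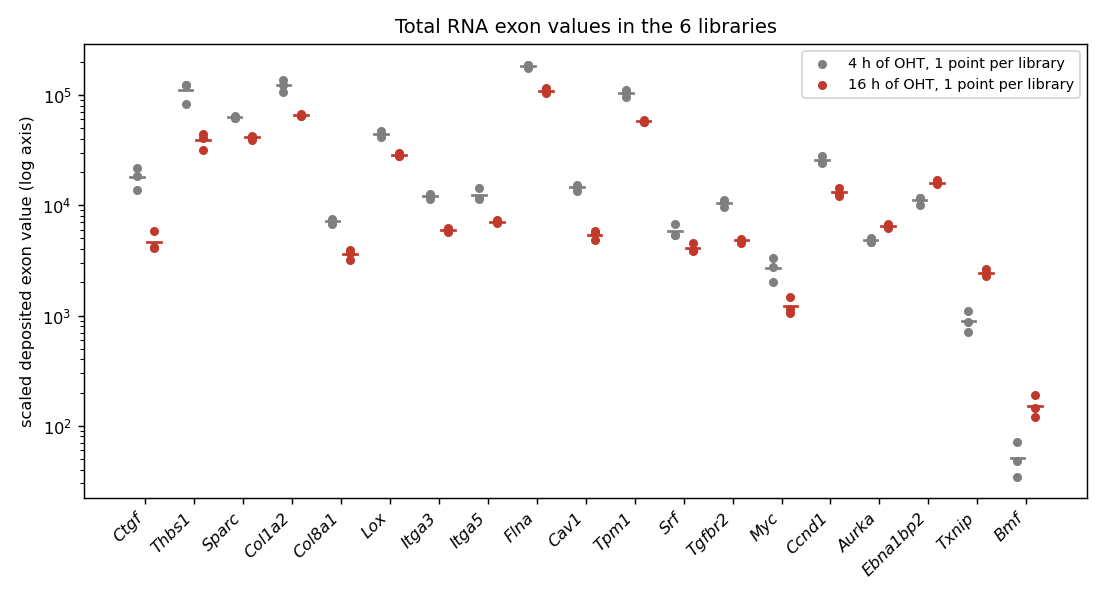
Scaled total RNA exon values (log axis) of 19 genes in the 3 libraries at 4 h (grey) and the 3 at 16 h (red) of OHT, with a bar at each mean. The points of the 2 times do not overlap for any gene shown, and Aurka, Ebna1bp2, Txnip and Bmf are the genes that lie higher at 16 h. The genes were picked from those named, most of them for a small p or for no overlap, so the lack of overlap is no separate support.

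Collagens form the fibres and sheets of the matrix. Of 22 listed collagen genes 19 were in the table and tested: 12 fell, none rose, and their median change was -0.58, against -0.0042 over all genes. Over all genes 19.4% fell and 16.1% rose on exons, and 10.4% fell and 8.17% rose on introns. These are the shares to set beside this and the later list counts. Col1a2, a chain of the main fibrillar collagen of connective tissue (chromosome 6, bases 4454814 to 4491543), had exon values of 106813, 137414 and 123815 at 4 h and 65024, 67057 and 64018 at 16 h. It fell 1.87-fold (adjusted p = 3.5e-06), from 193 ± 20.8 to 107 ± 1.15 RPKM (SD, n = 3). Col8a1, a short-chain collagen, had 7060.1, 6772 and 7564 at 4 h and 3176, 3668 and 3891 at 16 h (log2 change -1.0, SE 0.08, adjusted p = 7.09e-11). The 3 values at 16 h lay close together and well under those at 4 h in both genes. Col5a2, which helps set fibril width, changed less (log2 change -0.57, SE 0.05, adjusted p = 2.44e-09). Log2 changes were -1.20 for the anchoring fibril gene Col7a1, -1.04 for Col11a1, -0.99 for Col5a1, -0.86 for Col18a1, the source of endostatin, and -0.58 for the basement membrane gene Col4a1. On introns 8 collagen genes fell and 4 rose, with a median of -0.36, so the direction was mixed on introns. The exon change was lower than the intron change in 6 collagen genes by the test of that difference, against 4.75% of all genes, and in 1 when the 6 libraries alone were fitted. Col11a1 was one (difference -0.67 on the log2 scale, SE 0.10, adjusted p = 0.000226) and Col1a2 another (difference -0.66 on the log2 scale, SE 0.18, adjusted p = 0.0223).

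Matrix glycoproteins and proteoglycans fill the space between collagen fibres and bind cells. Of 38 genes tested (49 listed) 24 fell and 2 rose, with a median of -0.49. With 1 library left out 18 to 25 fell and 2 to 3 rose. Thbs1, thrombospondin 1, an adhesive glycoprotein that can activate TGF-beta, had 124468, 122806 and 82996 at 4 h and 44060.0, 40660.3 and 31535 at 16 h. That was a 2.82-fold fall (log2 change -1.50, SE 0.16, adjusted p = 1.95e-08), the second furthest of those named in this list after Tinagl1. Sparc, a collagen-binding protein, had 62323, 64082 and 62269.5 at 4 h and 41888, 42351 and 39401 at 16 h (log2 change -0.61, SE 0.05, adjusted p = 2.98e-10). The scatter within each time was small for Sparc, and its smaller fall had a smaller adjusted p than that of Thbs1. Log2 changes were -0.59 for the proteoglycan gene Bgn, -0.72 for the laminin chain gene Lamb1, -0.80 for Efemp2, needed for elastic fibres, and -0.72 for Igfbp7, which binds insulin-like growth factors. Smoc1, a calcium-binding basement membrane protein, went the other way with 2733, 2967 and 2740.0 at 4 h and 5824, 5732 and 6207 at 16 h (log2 change 1.07, SE 0.10, adjusted p = 9.34e-10). Its intron values were 2874, 3291 and 3381 at 4 h and 3171, 3158 and 3229 at 16 h (log2 change 0.01, adjusted p = 0.981), and the exon and intron changes differed (difference 1.07 on the log2 scale, SE 0.07, adjusted p = 7.8e-10).

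Enzymes that cross-link, process or degrade matrix, with their inhibitors, showed 23 falls and 2 rises among 37 genes tested (45 listed), with a median of -0.39. With 1 library left out there were 18 to 23 falls and 1 to 3 rises. Lox, lysyl oxidase, which cross-links collagen and elastin, had exon values of 41588, 47118 and 42971 at 4 h and 28051, 30052 and 28236 at 16 h (log2 change -0.61, SE 0.06, adjusted p = 3.5e-09). Its introns had 808, 948 and 1088 at 4 h and 1137, 1122 and 1138 at 16 h and did not pass the test (adjusted p = 0.0635), and the exon and intron changes differed (difference -0.87 on the log2 scale, SE 0.13, adjusted p = 0.000181). The plasminogen activator genes Plau and Plat, whose products start the plasmin cascade, had log2 changes of -0.86 and -1.05. Plat values were 757, 761 and 944 at 4 h and 395, 390.3 and 395 at 16 h, so the 3 late libraries nearly coincided. The metalloproteinase inhibitor gene Timp2 changed by -0.84, Loxl3 by -0.76, the procollagen protease genes Bmp1 and Adamts2 by -0.48 and -1.30, and the sheddase gene Adam19 by -1.0. Loxl2, another lysyl oxidase, had exon values of 222, 169 and 185 at 4 h and 274, 214 and 201 at 16 h that did not pass the test (adjusted p = 0.195). Its introns fell, with 107, 55.9 and 113 at 4 h and 38, 25.3 and 22.8 at 16 h (log2 change -1.61, SE 0.22, adjusted p = 2.2e-06).

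Integrins pair as alpha and beta chains that bind collagen, laminin or fibronectin. Of 16 genes tested (17 listed) 11 fell and 1 rose, with a median of -0.59. Itga3, an alpha chain for laminin (chromosome 11, bases 94905788 to 94938115), had 12173, 12776 and 11409.7 at 4 h and 5808, 6227 and 5778 at 16 h (log2 change -1.03, SE 0.07, adjusted p = 2.33e-12). The fibronectin receptor gene Itga5 had 14359.7, 11662 and 11465 at 4 h and 7012, 6898 and 7399 at 16 h (log2 change -0.81, SE 0.09, adjusted p = 8.46e-08). Both genes had stayed in a narrow range within each time, with a gap between times. Itgb3 and Itgav, which form a vitronectin receptor, had log2 changes of -1.05 and -0.56, and Itgb5, another partner of Itgav, had -0.61. The collagen receptor chain gene Itga2 (-1.13), Itga8 (-1.07) and the laminin receptor chain gene Itga6 (-0.83) fell as well, with Itga8 at 67.1, 62.3 and 52.6 at 4 h and 26.4, 29.1 and 29.3 at 16 h, close to the low end of the table. For Itgb3 the exon fall exceeded the intron change (difference -0.74 on the log2 scale, SE 0.14, adjusted p = 0.00153).

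Focal adhesion proteins link integrins to actin. Here 29 of 38 genes tested (41 listed) fell and none rose, with a median of -0.60. On introns 26 fell and none rose, with a median of -0.45, against 10.4% lower among all genes on introns. Flna, filamin A, which cross-links actin (chromosome X, bases 71468800 to 71495159), had 188697, 187308 and 176057 at 4 h and 108004, 116952 and 104691 at 16 h (log2 change -0.74, SE 0.07, adjusted p = 8.12e-10). Per length that was 348 ± 17 RPKM at 4 h and 215 ± 9.07 RPKM at 16 h (SD, n = 3). Cav1, caveolin 1, the coat protein of caveolae, had 15332, 14611 and 13595 at 4 h and 5553, 5876 and 4861 at 16 h, a 2.68-fold fall (adjusted p = 1.84e-10). Csrp1, a LIM protein of actin bundles and an SRF target, had 8446, 6359 and 6279 at 4 h and 3241, 2593 and 2266 at 16 h (log2 change -1.38, SE 0.15, adjusted p = 2.79e-08). In each of these the 2 times were apart. Lpp, a zyxin relative, changed by -1.05, Parvb by -1.27, Fblim1 by -1.26, Sorbs2 by -1.23 and Pdlim5 by -0.80 on the log2 scale. Lpp still fell from 12 h to 16 h (-0.47, adjusted p = 0.000153).

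Actin, myosin and SRF target genes showed 25 falls and no rise among 35 tested (43 listed), with a median of -0.50, and 18 falls and no rise on introns. Tpm1, tropomyosin 1, which coats and stabilises actin filaments (chromosome 9, bases 66870397 to 66897213), had 110387, 95247 and 105140.0 at 4 h and 59653, 56958 and 56716 at 16 h (log2 change -0.84, SE 0.07, adjusted p = 2.02e-10). Cnn2, the actin-binding calponin 2, had 22462, 19813 and 20709.7 at 4 h and 12533, 11489.6 and 11025 at 16 h (log2 change -0.85, SE 0.06, adjusted p = 6.32e-12). Tmsb4x, which holds actin monomers in reserve, had 30441, 24066 and 30403 at 4 h and 14466, 13846 and 15586 at 16 h (log2 change -0.94, SE 0.09, adjusted p = 5.31e-09). The late libraries of all 3 genes were the low ones. Log2 changes were -0.65 for Tpm4, -0.63 for the myosin light chain gene Myl6, -0.80 for Wdr1, a helper of actin disassembly, -1.10 for Synpo and -0.37 for Cnn3. With library sums 1 gene of the list rose. Srf itself had 6786, 5373 and 5404 at 4 h and 4591, 3864 and 3900.2 at 16 h (log2 change -0.50, SE 0.09, adjusted p = 7.58e-05), and its introns fell too (log2 change -0.67, adjusted p = 0.00208). Tagln, a smooth muscle marker that SRF drives, had 26637, 21985 and 18926 at 4 h and 15343, 16261 and 12997 at 16 h (log2 change -0.59, SE 0.21, adjusted p = 0.0253). That call was lost without replicate 1 at 4 h (-0.46, adjusted p = 0.13), without replicate 2 at 4 h (-0.60, 0.0513) and without replicate 3 at 16 h (-0.50, 0.108). It was also lost on RPKM plus 0.1 (-0.54, 0.0526). Acta2 and Cnn1 were not analysed here.

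YAP and TAZ pathway genes showed 21 falls and 1 rise among 27 tested (30 listed), with a median of -0.43. With 1 library left out there were 17 to 20 falls and 0 to 1 rises. Yap1 itself had 10428, 9978 and 9433 at 4 h and 9527, 8990.0 and 10639 at 16 h. The 2 times overlapped and Yap1 did not pass the test (log2 change -0.04, SE 0.08, adjusted p = 0.756). Wwtr1, which codes for TAZ, had 6398, 5715 and 6004 at 4 h and 4076, 4278 and 4585 at 16 h and fell by 0.49 (adjusted p = 1.13e-06). Of the pathway's other members Nuak2, a kinase gene and YAP target, changed by -1.22, Ajuba by -0.61 and Amotl1, which holds YAP outside the nucleus, by -0.43, and Ctgf is described above. In the TGF-beta list 18 of 30 genes tested (37 listed) fell and none rose, with a median of -0.35 (1 rose with library sums and 2 without replicate 2 at 4 h). Tgfbr2, the receptor that binds the ligand (chromosome 9, bases 115993415 to 116084383), had 11079.7, 9664 and 10696 at 4 h and 4835, 4992 and 4557 at 16 h, a 2.18-fold fall with the smallest adjusted p of the genes named here (4.46e-15). Tgfbr1, its partner receptor, changed by -0.47. Smad3, which carries the signal to the nucleus, had 5043, 4345 and 4571 at 4 h and 2624, 2616 and 2585 at 16 h (log2 change -0.83, SE 0.06, adjusted p = 5.3e-11). The ligand gene Tgfb1 had low values of 156, 136 and 132 at 4 h and 54.7, 63.2 and 62.4 at 16 h (log2 change -1.22, SE 0.27, adjusted p = 0.000686). Fstl1, a secreted follistatin relative, changed by -0.65. Tgfb1, Tgfbr1, Tgfbr2 and Smad3 were thus all lower at 16 h. Other ligand genes of the list, such as Tgfb2, are not reported here.

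**Figure D2:**
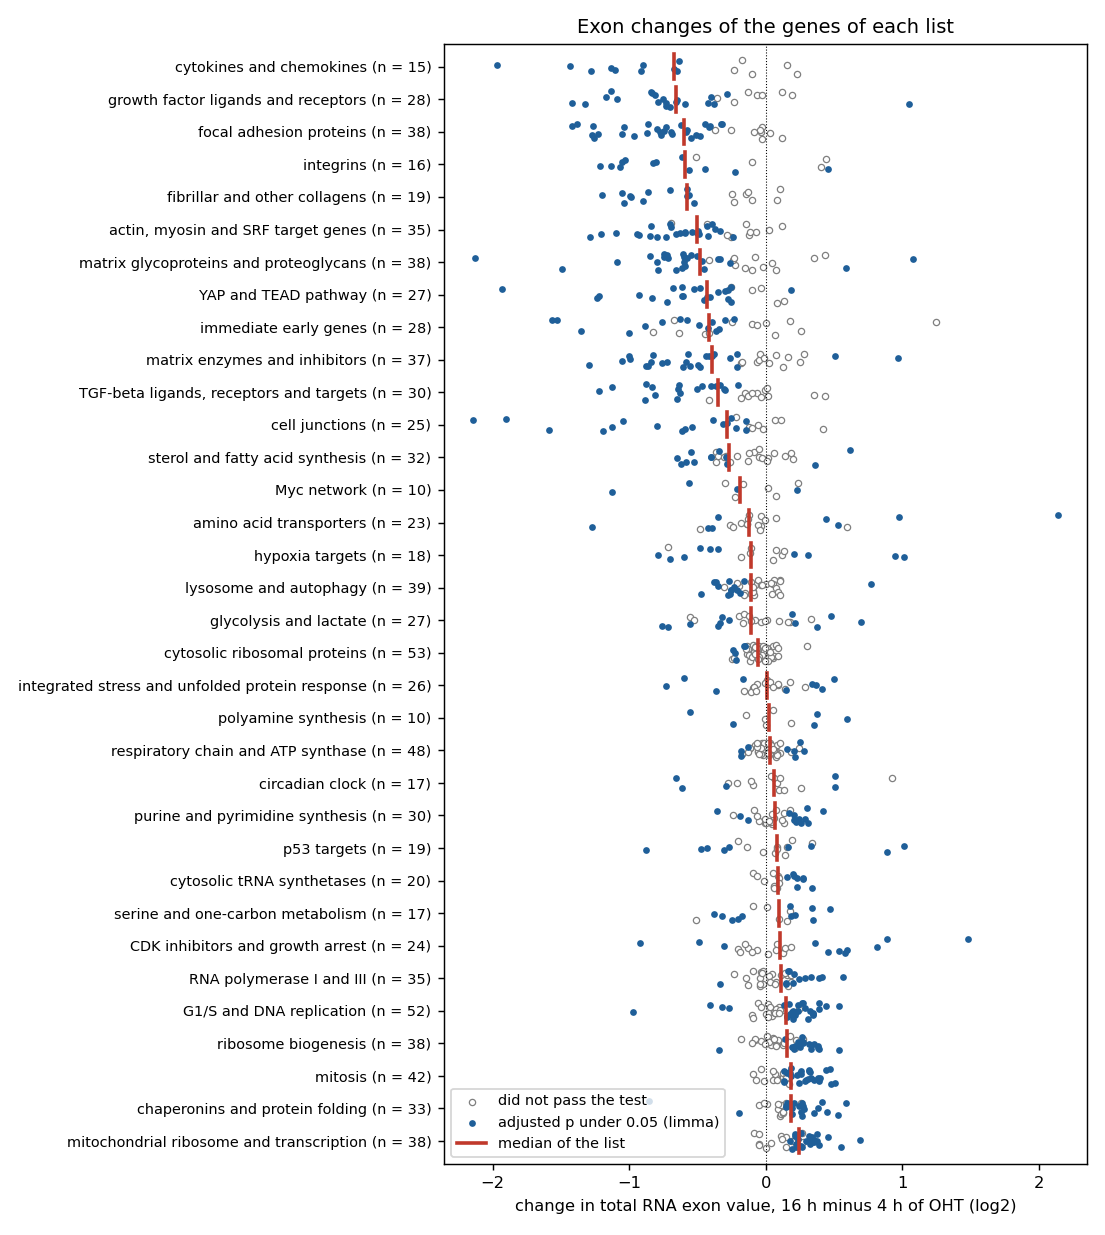
Change in total RNA exon value (log2, 16 h minus 4 h) of every tested gene in the lists with 10 or more tested genes, 1 point per gene, filled where the adjusted p was under 0.05, with a red bar at the median. Medians run from -0.67 for cytokines and chemokines to 0.25 for the mitochondrial ribosome, and the focal adhesion and actin lists hold no filled point above 0 under the scaling used.

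Promoters from RefSeq (GRCm38.p6, 250 bases before the start site to 50 after) were searched on both strands for the core of the TEAD site, GGAATG, for the SRF CArG box, for the E-box CACGTG and for the AP-1 site TGANTCA. A promoter was found by gene number for 9194 of 11471 genes, and a gene can have several. The CArG box was in 2.12% of 2364 promoters of genes that fell, 1.00% of 1897 of genes that rose, 1.33% of 11811 of all genes tested and 1.63% of the 32851 in the table. For GGAATG the same shares were 14.1%, 10.1%, 12.1% and 14.7%. CACGTG was in 9.98%, 9.54%, 10.1% and 7.15%, and TGANTCA in 6.43%, 3.69%, 5.00% and 7.81%. Among 211 promoters of 143 genes that fell by 1 or more on the log2 scale, TGANTCA was in 14.2%, GGAATG in 16.6%, the CArG box in 3.32% and CACGTG in 6.64%. Shares for genes that rose by as much are not given here. All these shares describe the letters present, promoter by promoter, with no test. In the lists of genes above, a CArG box was found for Actg1, Cnn2, Myl6, Myl9 and Srf of the actin list and for Fermt2 and Vcl of the focal adhesion list.

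The sequences shown are those of the 2 furthest falls among the named genes with a CArG box, the 2 furthest falls with GGAATG and the furthest rise with CACGTG, with the motif in capitals. Prune2 (log2 change -1.37) has its box 80 bases before the start site, and Cnn2 (-0.85) has it 56 bases before. Tinagl1 (-2.13) carries GGAATG on the other strand, where it reads CATTCC, and also holds TGANTCA; Etv1 (-1.77) carries GGAATG on the printed strand. Arrdc4 rose (1.29) and has CACGTG 193 bases before its start site, the sequence that the glucose sensor MondoA with Mlx and also Myc with Max can bind; it holds a CArG box too.
Prune2 (chr19:16955868-16956167, plus strand): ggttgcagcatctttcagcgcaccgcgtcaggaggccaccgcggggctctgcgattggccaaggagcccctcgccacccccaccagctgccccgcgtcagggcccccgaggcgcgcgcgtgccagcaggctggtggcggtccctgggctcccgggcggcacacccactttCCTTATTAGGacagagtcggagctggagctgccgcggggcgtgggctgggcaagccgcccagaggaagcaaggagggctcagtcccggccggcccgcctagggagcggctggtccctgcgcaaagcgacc
Cnn2 (chr10:79988350-79988649, plus strand): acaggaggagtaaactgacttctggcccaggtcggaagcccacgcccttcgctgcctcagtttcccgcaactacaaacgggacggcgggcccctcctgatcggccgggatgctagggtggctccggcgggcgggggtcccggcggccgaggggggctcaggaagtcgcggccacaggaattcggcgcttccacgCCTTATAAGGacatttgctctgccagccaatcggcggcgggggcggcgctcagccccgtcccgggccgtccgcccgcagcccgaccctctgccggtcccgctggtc
Tinagl1 (chr4:130175073-130175372, minus strand): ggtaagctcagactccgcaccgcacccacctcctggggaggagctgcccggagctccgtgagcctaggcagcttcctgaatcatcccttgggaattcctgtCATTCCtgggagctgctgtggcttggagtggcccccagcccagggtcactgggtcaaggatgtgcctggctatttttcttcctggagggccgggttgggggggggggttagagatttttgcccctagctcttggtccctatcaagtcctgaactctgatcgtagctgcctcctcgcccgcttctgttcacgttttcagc
Etv1 (chr12:38779832-38780131, plus strand): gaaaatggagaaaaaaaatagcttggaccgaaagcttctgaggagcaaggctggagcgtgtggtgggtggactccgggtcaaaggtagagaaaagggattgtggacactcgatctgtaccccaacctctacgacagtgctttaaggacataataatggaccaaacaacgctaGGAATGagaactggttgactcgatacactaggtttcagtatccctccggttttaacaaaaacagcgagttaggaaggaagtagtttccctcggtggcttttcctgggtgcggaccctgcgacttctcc
Arrdc4 (chr7:68749189-68749488, minus strand): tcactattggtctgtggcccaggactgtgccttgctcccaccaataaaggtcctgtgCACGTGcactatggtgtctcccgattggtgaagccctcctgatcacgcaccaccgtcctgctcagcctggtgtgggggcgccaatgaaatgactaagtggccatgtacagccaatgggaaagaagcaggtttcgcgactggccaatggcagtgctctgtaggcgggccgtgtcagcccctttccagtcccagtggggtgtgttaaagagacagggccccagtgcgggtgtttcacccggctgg

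Genes of cell contacts and of secreted signals were lower in most members tested. In the junction list 18 of 25 genes tested (35 listed) fell and none rose, and with library sums 1 rose. Pkp1, a desmosome plaque gene, changed by -1.13 and Ctnna1, which ties cadherins to actin, by -0.54, after Cldn1 above. Growth factors and their receptors showed 20 falls and 1 rise among 28 tested (40 listed), with a median of -0.65. Pdgfb, the ligand of the PDGF receptors of fibroblasts, had 1852, 1507 and 1479 at 4 h and 693, 580.0 and 535 at 16 h (log2 change -1.42, SE 0.11, adjusted p = 4.04e-11). The receptor genes Met and Ghr changed by -0.65 and -0.84, and the cytokine gene Lif by -1.32. Cytokines and chemokines showed 10 falls and no rise among 15 tested (23 listed), with a median of -0.67. Ccl2, which attracts monocytes, had 5789, 4238 and 4749 at 4 h and 1995, 1903 and 1556 at 16 h (log2 change -1.43, SE 0.15, adjusted p = 2.18e-08), and Cxcl12, which holds stem and immune cells in place, changed by -1.13. Of 28 immediate early genes tested (34 listed) 15 fell and none rose, but 8 fell without replicate 1 at 4 h and 9 without replicate 2 at 16 h. Among them Maff changed by -1.35, Dusp6, a feedback phosphatase of ERK, by -1.0 and Klf6 by -0.76. Egr1 had 892, 1781 and 794 at 4 h and 495, 302 and 325 at 16 h (log2 change -1.56, SE 0.54, adjusted p = 0.0244), with replicate 2 at 4 h well above the rest, and the call was lost without that library (-1.20, adjusted p = 0.131), without replicate 2 at 16 h (-1.43, 0.0788) and without replicate 3 at 16 h (-1.48, 0.0713).

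Changes in genes of cell division were small. In the mitosis list 28 of 42 genes tested (45 listed) rose and none fell, with a median of 0.18 (22 rose and 1 fell without replicate 2 at 16 h), and on introns 26 rose and none fell, with a median of 0.30, against 8.17% higher among all genes on introns. Aurka, a kinase of the spindle poles (chromosome 2, bases 172181690 to 172196035), had 5091, 4684 and 4689.7 at 4 h and 6784, 6607 and 6267 at 16 h (log2 change 0.44, SE 0.05, adjusted p = 2.64e-07). The condensin gene Ncapg changed by 0.50 and the kinesin genes Kif20a and Kif23, which act in cytokinesis, by 0.39 and 0.29. Against 0 min the same list had 32 lower and no higher genes at 4 h, with a median of -0.26, where 19.5% of all genes were lower and 19.7% higher. That contrast shares the 4 h libraries with the late one, so the levels are given side by side. Aurka stood at 5851 ± 324 at 0 min, 4821 ± 233 at 4 h, 5764 ± 259 at 8 h, 6875 ± 71.9 at 12 h and 6552 ± 263 at 16 h (scaled exon value, SD, n = 3). It was lowest of these at 4 h and highest at 12 h. In the list of G1/S and DNA replication 26 of 52 genes rose, 4 fell and the rest did not pass the test, with a median of 0.15. With 1 library left out 18 to 24 rose and 4 fell. Cdc7, a kinase that fires replication origins, changed by 0.44, the helicase gene Cdc45 by 0.39 and the polymerase subunit gene Pold2 by 0.53. Ccnd1, cyclin D1, which starts G1 progress in response to growth factors and adhesion (chromosome 7, bases 152115836 to 152125774), fell, with 27850.5, 24864 and 24266 at 4 h and 12211, 12717 and 14409 at 16 h (log2 change -0.97, SE 0.07, adjusted p = 4.83e-12). Among CDK inhibitors and growth arrest genes 8 of 24 rose and 3 fell: Cdkn1b, which codes for p27, changed by 0.58, Sesn1 by 0.54 and Tob1 by 0.82. Cdkn1a, which codes for p21, had low values of 46.1, 19.7 and 17.5 at 4 h and 52.7, 53.2 and 38 at 16 h that overlapped between the times; its rise (adjusted p = 0.0181) was lost without replicate 2 at 4 h (0.71, 0.0947), without replicate 3 at 4 h (0.63, 0.125), without replicate 1 at 16 h (0.81, 0.0626), without replicate 2 at 16 h (0.80, 0.0651) and in the 6 libraries alone (0.88, 0.066).

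Myc exon values were 3318, 2762 and 2029 at 4 h and 1484, 1061 and 1141 at 16 h (log2 change -1.12, SE 0.20, adjusted p = 4.67e-05), and its introns fell as well (log2 change -0.90, SE 0.13, adjusted p = 8.53e-06). Exon reads of endogenous Myc and of the fusion gene could not be told apart here. In the Myc network list 1 of 10 genes tested (15 listed) rose and 3 fell, against 16.1% and 19.4% of all genes, and no pattern is read from so few genes. The list had 0 rises without replicate 1 at 4 h or at 16 h, 2 rises without replicate 2 at 16 h and 5 falls without replicate 3 at 16 h. Max changed by -0.21, Mlx by 0.22 and Mxd4, a repressor partner of Max, by -0.57. Max lost its call with no further scaling (-0.16, adjusted p = 0.0707) and on RPKM plus 0.1 (-0.16, 0.0605), and Mlx without replicate 1 at 4 h (0.19, 0.06) and without replicate 1 at 16 h (0.17, 0.0845).

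Ribosome biogenesis genes differed between exons and introns. In the ribosome biogenesis list 16 of 38 genes tested (46 listed) rose and 1 fell on exons, with a median of 0.16, and the rest did not pass the test. On introns none rose and 9 fell, with a median of -0.12. Of all genes 16.1% rose and 19.4% fell on exons, and 8.17% rose and 10.4% fell on introns. With library sums 1464 of all genes rose and 850 fell on introns. List counts on introns under other scalings are not given here. At 4 h, 29 of the 38 genes were already higher on exons than at 0 min and none was lower, with a median of 0.35. Of all genes 19.7% were higher and 19.5% lower in that contrast, which shares the 4 h libraries with the late one. The exon change from 4 h to 16 h exceeded the intron change in 16 of the 38 genes by its own test, against 3.76% of all genes, and in none was it smaller. That count was 12 to 18 with 1 library left out and 0 in the 6 libraries alone, where 12 of all genes passed. Ebna1bp2, an assembly factor of the large ribosome subunit, had exon values of 11622, 10156 and 11630.5 at 4 h and 15594, 15868 and 16783 at 16 h (log2 change 0.53, SE 0.07, adjusted p = 4.56e-07) and intron values of 894, 827 and 755 at 4 h and 714, 767 and 770.0 at 16 h (adjusted p = 0.259). The difference between the 2 changes was 0.67 (adjusted p = 0.000362). Heatr1, needed for transcription of ribosomal RNA, rose on exons (0.33) and fell on introns (-0.25, adjusted p = 0.0111). Nhp2 and Rrp9, parts of small nucleolar particles, changed by 0.36 and 0.38 on exons. Without replicate 2 at 4 h the list had 8 rises and 2 falls on exons. RNA polymerase I and III genes showed 12 rises and 1 fall among 35, with 7 rises and 2 falls without replicate 3 at 16 h and 7 and 1 in the 6 libraries alone. Polr1a, the catalytic subunit of polymerase I, changed by 0.33 on exons and -0.09 on introns (difference 0.43 on the log2 scale, SE 0.05, adjusted p = 3.33e-06). At 4 h, 19 of the 35 were already higher on exons than at 0 min and 2 were lower.

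Mitochondrial ribosome and transcription genes had the highest median of the lists tested with 10 or more genes, 0.25, with 25 rises and no fall among 38 (42 listed). On introns 1 rose and none fell, and in 11 genes the exon change exceeded the intron change (5 to 8 with 1 library left out and 0 in the 6 libraries alone). Mrpl22 had 4021, 4018 and 4835 at 4 h and 6947, 6579.7 and 7124 at 16 h (log2 change 0.69, SE 0.08, adjusted p = 6.29e-08) and Mrps5 changed by 0.45. Chaperones showed 19 rises and 2 falls among 33 (37 listed), with 14 to 18 rises and 1 to 2 falls when 1 library was left out: Hsp90aa1, the inducible cytosolic Hsp90, had 115307, 111682 and 115417 at 4 h and 165895, 174559 and 172639 at 16 h (log2 change 0.58, SE 0.07, adjusted p = 3.35e-07), and its partner gene Fkbp4 changed by 0.45. Both had intron values that did not pass the test (-0.03 and 0.00). Cytosolic tRNA synthetases showed 8 rises and no fall among 20, with Farsb at 0.34 and Eprs at 0.23. In purine and pyrimidine synthesis 10 of 30 rose and 3 fell on exons (1 fell without replicate 3 at 4 h and with no further scaling), and none rose and 8 fell on introns. At 4 h, 17 of these 30 were already higher on exons than at 0 min and 3 were lower. From 4 h to 16 h Adsl and Hprt changed by 0.30 and 0.29. Cytosolic ribosomal protein genes did not share this pattern in count: 5 of 53 were lower and none higher, and with library sums 2 were lower and 2 higher, so their direction depends on the scaling. Without replicate 3 at 4 h 2 were lower.

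Several metabolic and stress lists had rises and falls in like numbers, and no pattern is read from them. Of all genes 16.1% were higher and 19.4% lower, and some of these short lists, such as hypoxia targets, lay above both shares. Hypoxia targets had 4 rises and 6 falls among 18, p53 targets 4 and 5 among 19, amino acid transporters 4 and 5 among 23, glycolysis 5 and 7 among 27, the unfolded protein and stress response 5 and 4 among 26, the circadian clock 2 and 3 among 17 and polyamine synthesis 3 and 2 among 10. Single libraries moved several of these counts. The p53 list had 2 rises without replicate 2 at 4 h, replicate 1 at 16 h or replicate 2 at 16 h. The transporter list had 2 rises without replicate 2 at 16 h and 3 falls without replicate 3 at 16 h. Glycolysis had 2 rises without replicate 2 at 4 h or at 16 h and 4 falls without replicate 3 at 16 h, and the stress response 3 rises without replicate 1 and 2 without replicate 2 at 16 h. Single members had larger values: the growth factor gene Vegfa changed by -0.79, Ddit4, an inhibitor of mTORC1, by 1.01 and the hexokinase gene Hk2 by -0.72. The respiratory chain had 5 rises and 3 falls among 48, and 12 and 2 under library sums. Serine and one-carbon genes had 6 rises and 5 falls among 17, and 7 and 2 with no further scaling, with the mitochondrial folate enzyme gene Mthfd1l at 0.47. Falls outnumbered rises among sterol and fatty acid genes, with 2 rises and 10 falls among 32, and 2 and 4 without replicate 3 at 4 h. Insig1, a brake on sterol synthesis, changed by -0.65. Falls also outnumbered rises among lysosome and autophagy genes, with 1 rise and 13 falls among 39, and 6 falls without replicate 3 at 16 h. The lysosomal protease gene Ctsd changed by -0.26. Interferon-stimulated genes had 2 falls among 7. Of 18 replication-dependent histones listed, 1 was in the table and it did not pass the test.

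Some of the largest intron changes were in genes whose exons moved less, though Ctgf and Klhdc8a fell further on exons (-1.94 and -1.83). By size the intron falls were led by Egr1 (-1.81), Tmsb4x (-1.73), Ctgf (-1.68), Loxl2 (-1.61), Klhdc8a (-1.59) and Tagln (-1.56). Intron rises were led by Adamts16, with intron values of 7.08, 9.63 and 13 at 4 h and 34, 47.7 and 70.5 at 16 h (log2 change 2.22, SE 0.30, adjusted p = 2.23e-06), whose exon values of 4.13 to 8.79 did not pass the test (adjusted p = 0.492). Otogl (2.15), Hmgcll1 (1.49), Prl2c2 (1.44), Mpp2 (1.40) and Hgf (1.36), the ligand of Met, followed. The test of the exon change against the intron change of the same libraries found 431 of 11448 genes (3.76%) with the exon change higher and 544 (4.75%) with it lower, 8.52% in all. Using the 6 libraries alone it called 12 and 34. It called 211 and 298 without replicate 3 at 16 h, 267 and 346 without replicate 1 at 4 h, and 265 and 371 without replicate 2 at 4 h. Furthest on the lower side were Mgst3 (-1.73), Cda (-1.48), Il18 (-1.42) and Mapk3 (-1.42). Mapk3, the ERK1 kinase gene, had exon values of 515, 578 and 489 at 4 h and 385, 365 and 349 at 16 h and intron values of 34.4, 27.9 and 39.9 at 4 h and 60, 72.1 and 59.5 at 16 h, so exons fell (adjusted p = 0.00406) and introns rose (adjusted p = 0.0134). Furthest on the higher side, with Loxl2 and Smoc1, were Ass1 (1.12) and Pcsk6, a proprotein convertase gene (difference 1.02 on the log2 scale, SE 0.11, adjusted p = 4.96e-06).

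**Figure D3:**
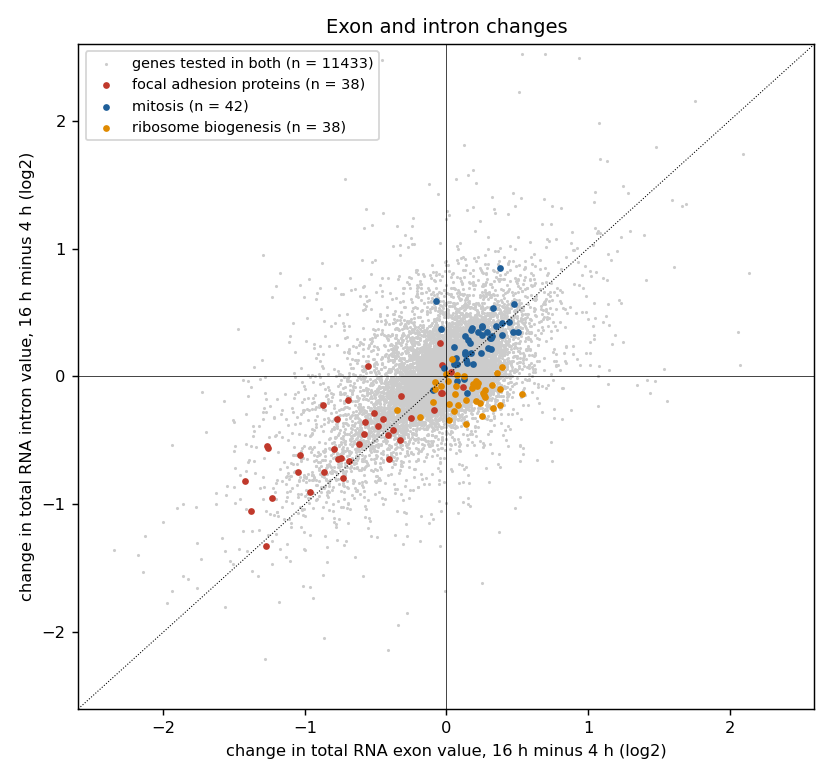
Change in total RNA intron value against change in exon value (both log2, 16 h minus 4 h) for 11433 genes with a symbol that were tested in both, which come from the same libraries, with 3 lists coloured and the line of equal change dotted; 2 genes lie outside the axes. Most focal adhesion genes (red) lie low on both axes and mitosis genes (blue) slightly high on both, while ribosome biogenesis genes (orange) lie mostly to the right of 0 on exons and mostly below 0 on introns.

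Labelled RNA gave a separate set of libraries for the same cells and times. On labelled exons 1173 of 11488 genes (10.2%) were higher and 1370 (11.9%) lower at 16 h. In the labelled libraries 29 focal adhesion genes fell and 1 rose, 12 collagen genes fell and 1 rose, 19 actin and SRF genes fell and none rose, and 28 mitosis genes rose and none fell. Ctgf was at 9786 ± 1179 at 4 h and 2679 ± 879.7 at 16 h (SD, n = 3) in labelled RNA (log2 change -1.91, SE 0.23, adjusted p = 6.83e-08), and Tgfbr2 at 1883 ± 118 at 4 h and 925 ± 72 at 16 h (SD, n = 3) (log2 change -1.03, SE 0.06, adjusted p = 2.45e-14). The ribosome biogenesis list had 3 rises and 2 falls in labelled RNA, with a median of 0.02. Heatr1 was at 6267 ± 323 at 4 h and 6373 ± 543 at 16 h (SD, n = 3) there, with no change that passed the test (adjusted p = 0.862), and the difference between its labelled and total changes did not pass the test (difference -0.31, SE 0.09, adjusted p = 0.242). The test of the labelled change against the total change called 3 genes higher and 2 lower of 11463 (0.0262% and 0.0174%, 0.0436% in all), while 840 genes had an unadjusted p under 0.05. With the replicate block it called 8 and 5. It called none when total replicate 2 at 4 h, total replicate 3 at 16 h or labelled replicate 1 at 16 h was left out, and 5 higher and 6 lower without total replicate 2 at 16 h.

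**Figure D4:**
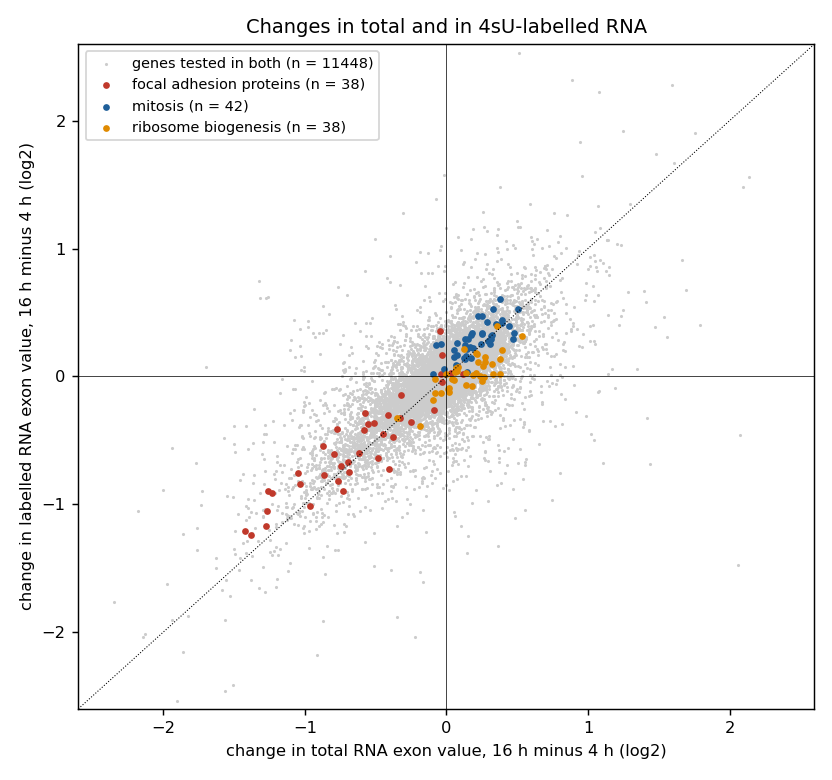
Change in 4sU-labelled RNA exon value against change in total RNA exon value (both log2, 16 h minus 4 h) for 11448 genes with a symbol tested in both, with 3 lists coloured and the line of equal change dotted; 1 gene lies outside the axes. Focal adhesion genes (red) lie along the dotted line on the lower left, and ribosome biogenesis genes (orange) lie mostly under it, near 0 in labelled RNA.

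The late change built up mainly between 4 h and 12 h. Against the same 4 h libraries 586 genes (5.1%) were lower and 560 (4.88%) higher at 8 h, 1841 (16%) lower and 1594 (13.9%) higher at 12 h, and 2224 lower and 1845 higher at 16 h. From 8 h to 12 h, 385 genes (3.35%) fell and 100 (0.871%) rose, and from 12 h to 16 h, 79 (0.688%) fell and 45 (0.392%) rose. Against 0 min, 3327 genes (29%) were lower and 3095 (26.9%) higher at 16 h. Focal adhesion genes lower than at 4 h numbered 17 at 8 h, 26 at 12 h and 29 at 16 h of 38. Collagens numbered 4, 13 and 12 of 19, and actin and SRF genes 4, 19 and 25 of 35. Some falls came before 4 h: 15 focal adhesion genes were already lower at 4 h than at 0 min and 3 higher (median -0.19). For actin and SRF genes these numbers were 10 and 0 (median -0.17), and for collagens 3 and 1 (median -0.11). Of all genes 19.5% were lower and 19.7% higher in that contrast, which shares the 4 h libraries with the late one. Ctgf stood at 16819 ± 189.9 at 0 min, 17979.8 ± 3914 at 4 h, 10367 ± 3071 at 8 h, 7478 ± 2723 at 12 h and 4687 ± 976 at 16 h (scaled exon value, SD, n = 3). Its change from 0 min to 4 h did not pass the test (adjusted p = 0.829). Tpm1 stood at 116460.0 ± 6174, 103591 ± 7688, 87494 ± 3302, 69659 ± 258 and 57776 ± 1630.3 at the same times. Txnip stood at 667 ± 20.1, 886 ± 191, 1274 ± 156, 2226 ± 425 and 2444 ± 168, and most of its rise fell between 8 h and 12 h.

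**Figure D5:**
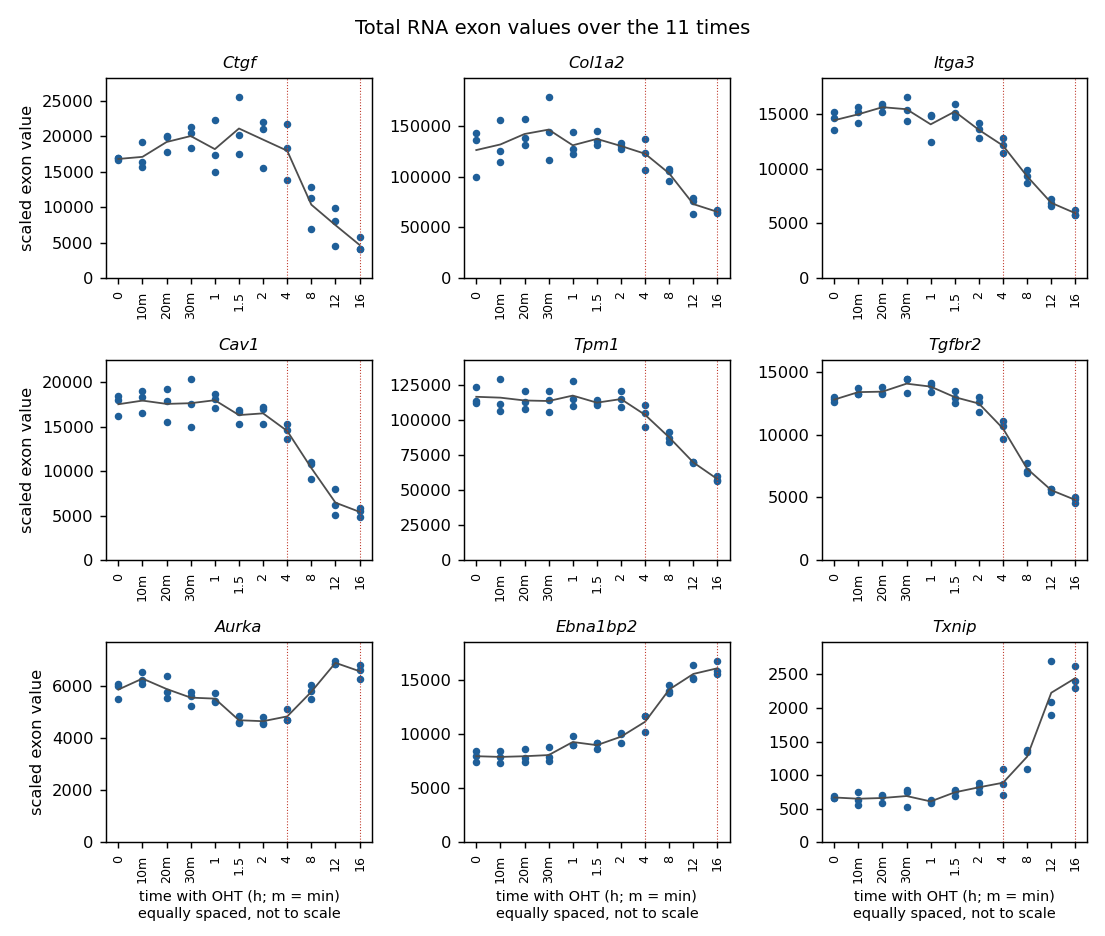
Scaled total RNA exon values of 9 genes over the 11 times (0, 10, 20 and 30 min, then hours; times equally spaced), 1 point per library and a line through the means, with 4 h and 16 h dotted. Ctgf, Col1a2, Itga3, Cav1, Tpm1 and Tgfbr2 fall mainly from 4 h to 12 h, Aurka dips before 4 h and is above its 4 h value from 8 h on, and Ebna1bp2 and Txnip are highest at 16 h.

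Markers of fibroblasts were checked in the same libraries. Of 14 markers 10 were in the table, 7 fell and none rose, and their summed RPKM was 4411 to 4603 at 4 h and 2998 to 3035 at 16 h. Vim went from 1950 to 1303 RPKM (log2 change -0.63), S100a4 from 1953 to 1357 (-0.58), Col1a1 from 173 to 86.1 (-1.05) and Fn1 from 154 to 95.0 (-0.75), while Prrx1, a mesenchymal factor gene, was at 21.1 and 22.3 (adjusted p = 0.806). Col1a1, Col1a2, Col3a1 and Fn1 also belong to the matrix lists above. No skeletal muscle or epithelium marker was in the table. Of 8 macrophage and blood markers 4 were in the table, with a summed level of 3.02 to 3.47 RPKM at 4 h and 4.41 to 4.61 at 16 h; Csf1r rose and Ptprc was at 0.0561 and 0.0746 RPKM. The 2 endothelium markers in the table summed to 1.5 to 1.74 and 1.05 to 1.20 RPKM. Smooth muscle markers, 4 of 8 in the table, summed to 203 to 294 and 147 to 176 RPKM, nearly all of it Tagln and Smtn. Adipocyte markers (1 of 7) summed to 2.35 to 3.36 and 3.36 to 4.72 RPKM, chondrocyte and bone markers (4 of 8) to 36.4 to 47.8 and 35.3 to 36.3, and neuron and glia markers (4 of 8) to 15.4 to 19.2 and 23.0 to 26.8. Of the neuron and glia markers Tubb3 rose, from 16.2 to 23.7 RPKM. Map2 fell, from 1.42 to 1.06 RPKM (log2 change -0.47, adjusted p = 0.0226), and Mbp and Sox10 did not pass the test. The part of these levels in the changes above was not tested.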

How the data were processed

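The samples were 66 libraries of 3T9-MycER fibroblasts, grouped by RNA kind and time from their titles, and each table column was matched to a sample by kind, time and replicate number. Per the submitters' processing notes, TopHat, TopHat2 2.0.8 and mm9 were used; counting tool, annotation and strand setting were not given in the sources used here. Exon and intron tables of 11513 genes, 15 of them without a symbol, were deposited. The deposited tables named counts hold rescaled whole numbers, here called a score and put through no count test: in replicate 2 of total RNA at 16 h no gene has the value 5, 16 or 26, while 31 genes have 4 and 40 have 6. RPKM values, also from the authors, equal these numbers times 1 constant per gene.

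Libraries were further scaled, table by table, with trimmed mean log ratios (30% of ratios and 5% of mean levels trimmed at each end), with factors of 0.973 to 1.04 for exons and 0.913 to 1.05 for introns. A gene was kept where 3 or more of the 33 libraries reached 10. Linear models with 1 mean per time over all 33 total RNA libraries (22 residual degrees of freedom) were fitted on the log2(value + 1) scale (limma 3.58.1, R 4.3.3, variance trend), two-sided with Benjamini-Hochberg adjustment, as was the exon minus intron difference. Labelled and total RNA were compared in 1 model of all 66 libraries. A fold change understates that of low genes because of the added 1. The code was tested on simulated data.

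Same-numbered libraries deviated together weakly between 4 h and 16 h (correlations 0.151, 0.187 and 0.149, against -0.117 to -0.0293 for other pairs). Deviations among the 3 libraries of a time balance out, so the negative values go with the positive ones and are no separate evidence. The numbers were taken as possible pairs, and a fit with a replicate block was run as an alternative. All results come from fits without the block unless stated. With it 2056 genes were higher and 2468 lower on exons, 1057 and 1350 on introns, and 530 and 636 for exon minus intron. Gene positions are from GENCODE M1 (mm9) and promoters from RefSeq (GRCm38.p6). Named genes were the 12 furthest called exon rises and falls (mean of at least 50 at the higher time, no overlap between times), 6 each way for introns and 4 each way for exon minus intron and labelled minus total, up to 4 members with the smallest p per list (8 for collagens, both matrix lists, integrins, focal adhesion and actin), and Myc, Srf, Yap1, Wwtr1, Tgfb1, Smad3, Ccnd1 and Cdkn1a. The comparison, the 36 gene lists and these rules were chosen with earlier results of these data known. Alternatives were other scalings, an added 5, RPKM plus 0.1, no filter, a filter of 50, only the compared libraries, the block and leaving out each library. Some genes the rule named are not reported here.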

Additional observations from a re-analysis of the deposited data

Results flagged for a closer look

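For 5 genes the change from 4 h to 16 h differed between labelled and total RNA by the test of the difference itself (limma, all 66 libraries, adjusted p under 0.05), out of 11463 genes. Csf1r, the receptor for macrophage colony-stimulating factor, had total RNA exon values of 207, 173 and 173 at 4 h and 416, 412 and 418 at 16 h and labelled values of 119 ± 6.45 at 4 h and 124 ± 13.8 at 16 h (SD, n = 3). The labelled change was lower by 1.11 (difference -1.11, SE 0.23, adjusted p = 0.0308); Csf1r overlaps Hmgxb3. Mthfd1l, a mitochondrial folate enzyme gene, had total values of 11404, 10173 and 10867 at 4 h and 14786, 14729.8 and 15402 at 16 h and labelled values of 3654 ± 204 at 4 h and 3908 ± 305 at 16 h (SD, n = 3) (difference -0.37, SE 0.07, adjusted p = 0.0271). In both genes total RNA rose and labelled RNA did not pass its own test (adjusted p = 0.833 and 0.298).

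Prune2 had total values of 2775, 3442 and 2916 at 4 h and 1262, 1231 and 1043 at 16 h and labelled values of 939.8 ± 158 at 4 h and 653 ± 79.5 at 16 h (SD, n = 3), so the fall was larger in total RNA (difference 0.85, SE 0.16, adjusted p = 0.0271). Spata6, named for its part in spermatogenesis, had total values of 429.9, 413 and 385 at 4 h and 327, 252 and 272 at 16 h and labelled values of 88.9 ± 9.45 at 4 h and 111 ± 10 at 16 h (SD, n = 3) (difference 0.85, SE 0.17, adjusted p = 0.0308). Lonp2, a peroxisomal protease gene, had total values of 1558, 1599 and 1538 at 4 h and 1133, 1162 and 1111 at 16 h and labelled values of 367 ± 5.56 at 4 h and 382 ± 44.6 at 16 h (SD, n = 3) (difference 0.51, SE 0.11, adjusted p = 0.0417). In these 3 genes total RNA fell in every late library, and the labelled change of Spata6 and Lonp2 did not pass the test (adjusted p = 0.143 and 0.754). Their intron changes in total RNA were -0.39 for Prune2, 0.19 for Spata6 and -0.03 for Lonp2.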

How the results depend on the processing

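Of 206 named genes tested on exons 199 were called, against 35.4% of all genes. Of the 199, 183 kept the call under every alternative run and none changed direction. Most named genes were chosen for large called changes or a small p in these data. Their calls therefore do not show how stable the calls of other genes are. The number of genes called on exons stayed within 1.5 times under every alternative, with 1481 to 1693 higher and 1890 to 2028 lower when 1 library was left out. On introns 1464 genes were higher with library sums, and 576 to 772 were higher and 882 to 1035 lower with 1 library left out, the lowest of the higher counts without replicate 2 of total RNA at 16 h. For the exon change against the intron change, 235 genes were higher and 285 lower with no further scaling, 12 and 34 with only the 4 h and 16 h libraries, whose fit has few residual degrees of freedom, and 211 to 357 and 298 to 471 with 1 library left out. For labelled against total RNA, 1 gene was higher with library sums, 1 higher and 0 lower with no further scaling, 0 and 0 with only the 4 h and 16 h libraries, 8 higher and 5 lower with the replicate block, and 0 to 6 each way with 1 library left out, every library except total replicate 3 at 4 h moving one of the counts by over 1.5 times (3 higher and 2 lower in limma as reported, 840 genes at an unadjusted p under 0.05). The cause of these shifts was not tested. The replicate block changed no other call of the named genes. True read depth is unknown, so the limit it sets for low genes such as Ptgfr, Cdkn1a and Adamts16 could not be given.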
